A study of Rattus norvegicus with 36 samples.

Results

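Kupffer cells are the resident macrophages of the liver. The genes described here are 10 markers of these cells and of macrophages in general: Clec4f, Cd163, Adgre1, Marco, Vsig4, Csf1r, Cd68, Cd14, Lyz2 and Ptprc. Members were the probe sets whose platform annotation names 1 of these genes. Of the 10 genes, 8 were measured, by 9 of the 31042 probe sets tested, and no probe set names Marco or Vsig4, which were not analysed here. Ptprc had 2 probe sets, and the one of higher mean signal stood for the gene unless the other is named.

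The measurements came from the livers of 36 male Harlan Sprague Dawley rats that were 7 weeks old when the study began. Groups of 6 rats were given corn oil alone (vehicle) or corn oil carrying decabromodiphenylethane (DBDPE), a brominated flame retardant, at 5 daily doses: 0.1 and 0.97 mg/kg, 9.71 and 97.1 mg/kg, and 970 mg/kg. Doses were given by gavage in 5 ml/kg on 5 days in a row, and tissue was taken from the left liver lobe 1 day after the last dose. Each rat gave 1 Affymetrix 3′ IVT array of whole liver RNA, with no sorting of cells, so every group shares the oil, the gavage and the mixed tissue.

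Kupffer cells line the liver sinusoids, where they take up bacteria, aged red cells and debris from portal blood. Their survival depends on signalling through the receptor Csf1r, and the transcription factor PU.1 drives macrophage genes in general. In rodents Clec4f, a C-type lectin, is the most specific marker of Kupffer cells. Cd163 is a scavenger receptor for haemoglobin bound to haptoglobin, Adgre1 encodes the F4/80 antigen, and Cd68 is a glycoprotein of late endosomes and lysosomes. Cd14 is a co-receptor for bacterial lipopolysaccharide, Lyz2 is a secreted lysozyme of macrophages and other myeloid cells, and Ptprc (CD45) is a phosphatase on nearly all white blood cells.

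The promoters of 4 members are shown because the covariation described further on divides them: Clec4f, Cd68 and Adgre1 varied together between animals and Lyz2 did not. The sequences are those of RefSeq on build GRCr8, from 250 bases before to 50 bases after the annotated gene start, 5′ to 3′ on the strand of the gene. Capitals mark the PU.1 core GAGGAA or its reverse complement TTCCTC.
Clec4f: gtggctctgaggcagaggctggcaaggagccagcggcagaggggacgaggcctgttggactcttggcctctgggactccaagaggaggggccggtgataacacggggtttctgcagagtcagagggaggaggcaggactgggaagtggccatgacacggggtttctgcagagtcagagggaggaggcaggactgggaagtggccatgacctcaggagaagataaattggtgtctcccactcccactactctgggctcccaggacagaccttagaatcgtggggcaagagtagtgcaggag
Cd68: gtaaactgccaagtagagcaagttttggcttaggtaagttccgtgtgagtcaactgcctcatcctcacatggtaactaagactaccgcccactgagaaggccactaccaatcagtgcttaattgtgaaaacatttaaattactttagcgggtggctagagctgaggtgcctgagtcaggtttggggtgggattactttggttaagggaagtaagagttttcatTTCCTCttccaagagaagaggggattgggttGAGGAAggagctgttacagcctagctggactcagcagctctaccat
Adgre1: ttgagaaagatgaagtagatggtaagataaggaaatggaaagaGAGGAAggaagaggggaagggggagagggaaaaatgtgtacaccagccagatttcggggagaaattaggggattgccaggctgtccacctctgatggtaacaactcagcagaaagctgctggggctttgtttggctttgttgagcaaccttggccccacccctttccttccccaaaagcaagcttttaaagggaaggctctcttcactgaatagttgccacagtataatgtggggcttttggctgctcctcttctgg
Lyz2: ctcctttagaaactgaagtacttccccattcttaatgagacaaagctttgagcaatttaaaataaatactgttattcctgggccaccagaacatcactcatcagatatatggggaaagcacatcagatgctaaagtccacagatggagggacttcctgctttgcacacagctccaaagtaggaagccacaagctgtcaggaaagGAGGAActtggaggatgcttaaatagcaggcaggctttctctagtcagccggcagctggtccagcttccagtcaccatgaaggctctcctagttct
The Clec4f window is chr4:117696358-117696657 (minus strand) and the Cd68 window is chr10:54882392-54882691 (minus strand). The Adgre1 window is chr9:2329190-2329489 (plus strand) and the Lyz2 window is chr7:54797962-54798261 (minus strand). Searched on both strands, the PU.1 core was found in 7 of the 10 member promoters (Adgre1, Cd14, Cd68, Csf1r, Lyz2, Marco and Ptprc), against 27.5% of all 27457 promoters of the same length. Lyz2 had it 46 bases before its start, Adgre1 207 bases before, and Cd68 both 27 bases before and just after the start, while these letters were not in the Clec4f window. The MAF motif TGCTGAC was in 0 of 10 member promoters and 4.4% of all promoters, and the E-box CACGTG in 0 of 10 and 6.7%. A match is a run of letters and no evidence of binding.

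The arrays were alike as a whole. Their medians ranged over 5.07 to 5.12 log2 units, and any pair of them correlated at r = 0.993 to 0.997 over probe sets, which are no independent replicates. The beta-actin control difference (log2, 3′ minus 5′ end), a measure of RNA quality, was 1.19 ± 0.08 at 970 mg/kg and 1.12 ± 0.07 in vehicle (SD, n = 6 each). The tissue matched its label: all 7 measured hepatocyte markers and all 8 measured members had a mean signal above that of the median probe set. All values below are log2 signals of single probe sets, so that a difference of 1 is a doubling, and signals of different genes are not set against each other. The number of arrays limits the precision, and p-values measure the spread between these samples, each taken to be its own rat.

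Clec4f, the Kupffer cell lectin, is given as the median with the lowest and highest animal of each group. Its signal was 10.003 (9.49 to 10.63) in vehicle, 10.36 (9.80 to 10.63) at 0.1, 10.47 (9.997 to 10.67) at 0.97, 10.36 (9.82 to 10.70) at 9.71, 10.19 (9.90 to 10.64) at 97.1 and 10.38 (9.83 to 10.53) at 970 mg/kg. The groups overlapped throughout, the vehicle median was the lowest of the 6, and 3 of the vehicle rats lay below every rat at 0.97 mg/kg. Over the 36 livers the highest Clec4f signal was 2.31-fold the lowest, and 13.8% of its variance lay between dose groups. Cd163, the haemoglobin scavenger receptor, had 6.90 (6.44 to 7.20) in vehicle, 7.02 (6.59 to 7.22) at 0.1, 6.99 (6.64 to 7.24) at 0.97, 6.87 (6.63 to 7.01) at 9.71, 6.88 (6.69 to 7.02) at 97.1 and 6.89 (6.45 to 7.29) at 970 mg/kg. Its group medians differed by less than the range inside any group, and 3.91% of its variance lay between groups, the least of the 8 genes. Adgre1 had 6.59 (6.22 to 7.19) in vehicle, 6.81 (6.09 to 7.38) at 0.1, 6.94 (6.64 to 7.29) at 0.97, 6.97 (6.38 to 7.21) at 9.71, 6.65 (6.34 to 7.04) at 97.1 and 6.87 (6.52 to 7.10) at 970 mg/kg. Both its lowest and its highest animal were at 0.1 mg/kg, 2.45-fold apart.

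Csf1r, the receptor for macrophage colony-stimulating factor, had 7.59 (7.23 to 7.92) in vehicle, 7.76 (7.26 to 8.10) at 0.1, 7.85 (7.42 to 7.97) at 0.97, 7.75 (7.36 to 8.02) at 9.71, 7.64 (7.41 to 7.90) at 97.1 and 7.73 (7.37 to 7.87) at 970 mg/kg. Every dose group of Csf1r overlapped vehicle across most of its range. The endosomal glycoprotein Cd68 had 7.97 (7.34 to 8.41) in vehicle, 8.18 (7.46 to 8.60) at 0.1, 8.39 (7.59 to 8.51) at 0.97, 8.22 (7.80 to 8.50) at 9.71, 8.11 (7.74 to 8.55) at 97.1 and 8.22 (7.89 to 8.41) at 970 mg/kg. As for Clec4f, the lowest Cd68 animal of all was a vehicle rat, vehicle 4. Ptprc, the phosphatase shared by white blood cells, had 6.30 (6.04 to 6.88) in vehicle, 6.55 (6.01 to 6.88) at 0.1, 6.70 (6.34 to 6.96) at 0.97, 6.73 (6.14 to 7.05) at 9.71, 6.61 (6.27 to 6.70) at 97.1 and 6.66 (6.40 to 6.78) at 970 mg/kg. Ptprc had the largest share of variance between groups of the 8 genes, 16.1%. Its other probe set had a lower mean signal (4.81) and correlated with it at r = 0.64 after group means were removed.

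The lipopolysaccharide co-receptor Cd14 had 9.72 (9.39 to 10.29) in vehicle, 9.995 (9.77 to 10.29) at 0.1, 9.82 (9.50 to 10.10) at 0.97, 9.83 (9.49 to 10.44) at 9.71, 9.86 (9.43 to 10.40) at 97.1 and 10.04 (9.87 to 10.17) at 970 mg/kg. At 970 mg/kg the 6 rats spanned less of the scale (SD 0.10, n = 6) than the 6 vehicle rats (SD 0.36, n = 6), a difference in spread that was not tested. Lyz2, the macrophage lysozyme, had 10.13 (9.98 to 10.74) in vehicle, 10.55 (10.09 to 10.72) at 0.1, 10.53 (9.32 to 10.87) at 0.97, 10.59 (10.21 to 10.69) at 9.71, 10.25 (10.19 to 10.68) at 97.1 and 10.06 (9.99 to 10.78) at 970 mg/kg. It had the widest range of the 8 genes, 2.94-fold, with both its lowest and its highest animal at 0.97 mg/kg. RefSeq lists a second lysozyme gene, Lyc2, that also carries the synonym Lyz2 and that no probe set names, so the signal may be shared between them. For the 8 genes the SD within groups was 0.24 to 0.33, between the 94.0th and 97.7th percentiles of all probe sets, whose median SD was 0.14.

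**Figure D1:**
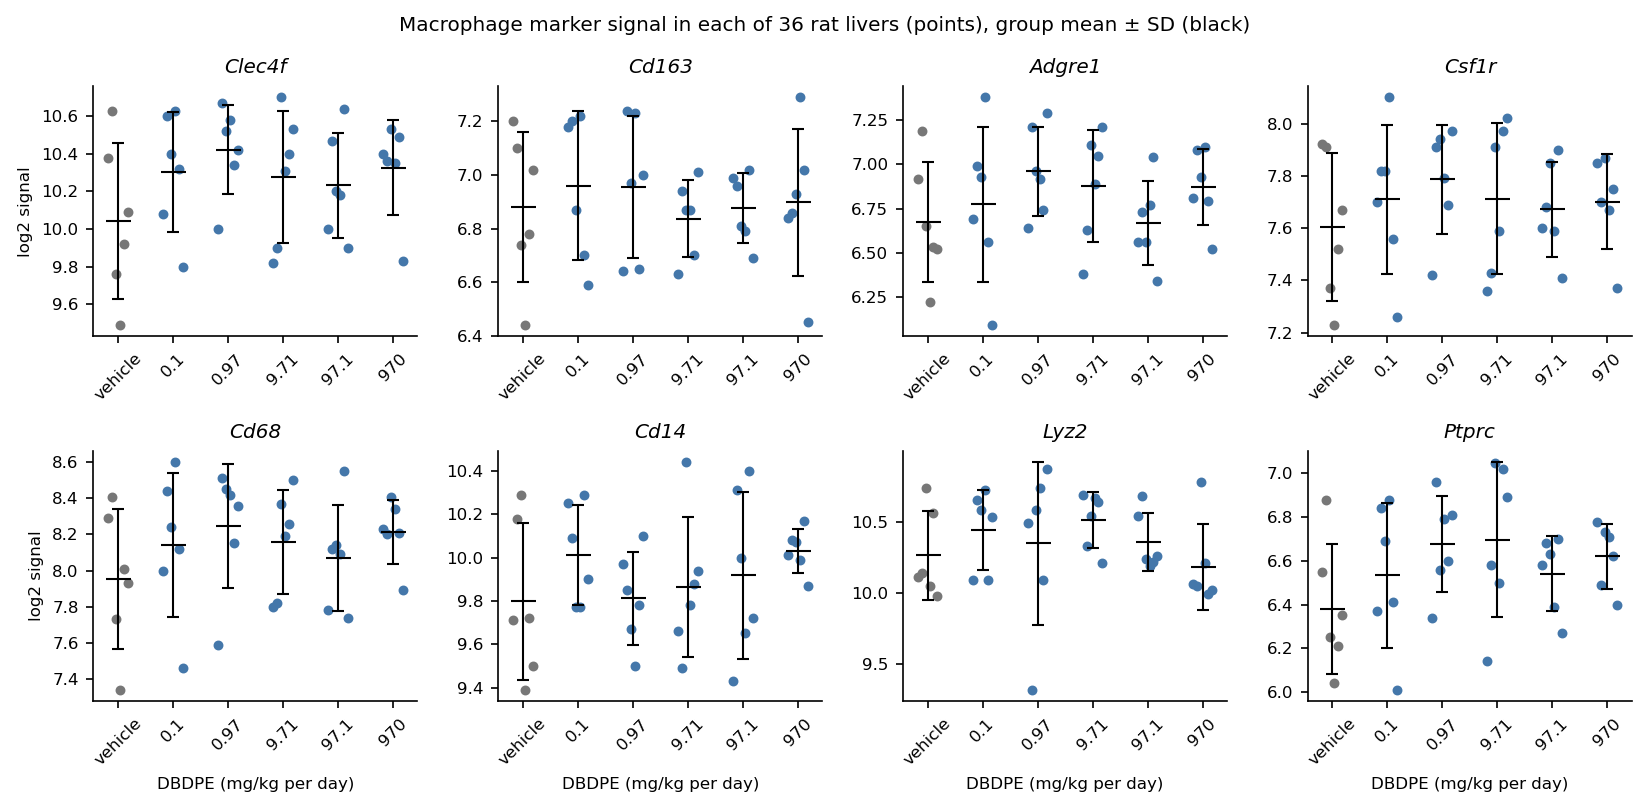
Log2 signal (vertical axes, 1 panel per gene) of the 8 measured macrophage markers in vehicle and at each DBDPE dose (horizontal axes, mg/kg per day). Points are single rats, 6 per group, and black bars are group means ± SD. In every panel each dose group overlaps vehicle, and the range within each group exceeds the differences between group means.

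The series set each dose against vehicle. No macrophage marker passed limma's moderated test, whose adjusted p is a Benjamini-Hochberg value over all 31042 probe sets. In data simulated with the spread of all 31042 probe sets, the test called 15 of 50 changes of 1.2-fold at 970 mg/kg. The changed probe sets were drawn at random from all of them, and larger changes were planted beside them. Their median SD within groups was 0.14 over all probe sets, against 0.24 to 0.33 for the 8 genes. That share called therefore does not carry over to the members. A change of that size can thus go uncalled. At 0.1, 0.97 and 9.71 mg/kg 0 of the 9 member probe sets passed an adjusted p of 0.05, with 0% of all probe sets called at each of these doses. At 97.1 and at 970 mg/kg 0 of 9 passed again, against 0.00644% of all probe sets at each. Taking the 5 doses together against vehicle, 0 of 9 passed (background 0.00644%). Likewise 0 of 9 passed for a trend over the dose steps and 0 of 9 for a change at any dose by limma's F test (background 0.00644% for either). The smallest adjusted p of a member in limma was 0.893, for the trend of Ptprc, which had a slope of 0.036 per dose step. At an unadjusted p under 0.05 there were 0 of 8 genes for the trend and 0 of 8 for any dose, against 5.7% and 4.18% of all probe sets. Even Ptprc, with the largest share of variance between groups, had an unadjusted p of 0.287 in that F test. In whole liver, fewer cells of a type and less RNA per cell cannot be told apart.

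The single differences were small and mostly above 0. Clec4f differed from vehicle by 0.26 at 0.1 mg/kg, 0.38 at 0.97, 0.23 at 9.71, 0.19 at 97.1 and 0.28 at 970 mg/kg on the log2 scale. The interval at 0.97 mg/kg ran from 0.03 to 0.72, an increase of 29.8% at its centre with an unadjusted p of 0.0339 and an adjusted p of 0.985 in limma. At 970 mg/kg it ran from -0.06 to 0.63. Ptprc differed by 0.15, 0.30, 0.32, 0.16 and 0.24 over the same doses, with unadjusted p of 0.0484 at 0.97 and 0.0358 at 9.71 mg/kg and adjusted p of 0.985 and 0.978 in limma. Its other probe set differed by -0.003 at 0.1, 0.13 at 0.97 and 0.11 at 9.71 mg/kg. No other member had an unadjusted p under 0.05 at any dose. Members under that level numbered 0, 2, 1, 0 and 0 of 8 from the lowest dose to the highest, against 4.46%, 4.92%, 5.06%, 5.42% and 4.87% of all probe sets. These counts hung on single rats. At 0.97 mg/kg the count was 0 without vehicle 4 and 4 without vehicle 2 (Adgre1, Cd68, Clec4f and Ptprc), and over the 36 rats left out in turn it was 0 for 5 of them, among them vehicle 3 and 5 and rats 2 and 4 of that dose. At 9.71 mg/kg it was 0 for 7 rats left out (vehicle 3, 4, 5 and 6 and rats 3, 5 and 6 of that dose), and 2 without vehicle 2. At 970 mg/kg it was 2 without vehicle 2 (Clec4f and Ptprc), 1 without vehicle 3 (Cd14) and 1 without rat 6 of that dose (Clec4f). At 0.1 mg/kg it was 1 (Clec4f) without vehicle 2 or without rat 6 of that dose.

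The remaining members differed from vehicle by less than 0.30 at every dose. Cd68, the lysosomal glycoprotein, differed by 0.19, 0.29, 0.20, 0.12 and 0.26 from the lowest dose to the highest. Adgre1, the F4/80 gene, differed by 0.10, 0.29, 0.21, -0.004 and 0.20. Csf1r, the growth factor receptor, differed by 0.11, 0.18, 0.11, 0.07 and 0.10. Cd14 differed by 0.21, 0.01, 0.06, 0.12 and 0.23, with no order along the doses. Lyz2 differed by 0.18, 0.08, 0.25, 0.09 and -0.08, and was the one member below vehicle at 970 mg/kg. Cd163, the scavenger receptor, differed by 0.08, 0.07, -0.04, -0.01 and 0.02, within 0.10 of vehicle at every dose.

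Counting signs, 8, 8, 7, 6 and 7 of the 8 genes lay above vehicle from the lowest dose to the highest, against 49.6%, 50%, 49.1%, 50.5% and 48.1% of all probe sets. The median difference of the 8 genes was 0.17, 0.24, 0.21, 0.10 and 0.21, while the median over all probe sets lay between -0.004 and 0.001. For all doses together 8 of 8 lay above 0 (49.4% of all probe sets), with a median of 0.14, the largest being Clec4f at 0.27 and Ptprc at 0.23 (unadjusted p = 0.0497 and 0.0444, adjusted p = 0.938 for each in limma). These 2 of 8 under an unadjusted p of 0.05 stand against 5.3% of all probe sets, and the count was 0 for 19 of the 36 rats left out in turn, vehicle 4 among them, and 3 without vehicle 2. These counts do not come from separate observations: all 5 comparisons share the same 6 vehicle rats, and 6 of the genes varied together from animal to animal. The median moved with single vehicle rats. Without vehicle 4 the median for all doses was 0.066 with 7 of 8 above 0, and the medians from the lowest dose to the highest were 0.076, 0.140, 0.099, 0.016 and 0.123. In the same order 7, 6, 6, 4 and 6 of the 8 genes then lay above vehicle. Without vehicle 2, which was high for these genes, the median for all doses was 0.234 and that at 97.1 mg/kg 0.163. Without rat 4 of that dose the median at 0.1 mg/kg was 0.091, and without rat 2 or rat 5 of that dose the median at 97.1 mg/kg was 0.054 or 0.022.

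**Figure D2:**
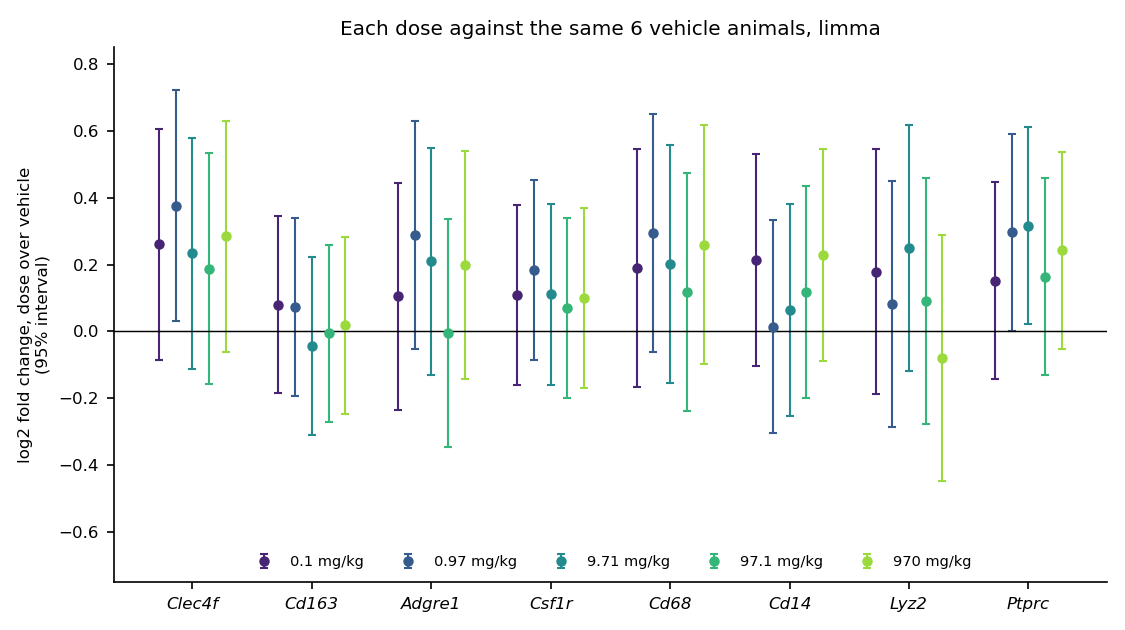
Log2 fold change of each dose over vehicle (vertical axis) for the 8 macrophage markers (horizontal axis), from limma. Points are estimates and bars 95% intervals, coloured by dose. Most points lie above 0 and all but 3 intervals cross it, those of Clec4f at 0.97 mg/kg and of Ptprc at 0.97 and 9.71 mg/kg.

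Between animals the picture was different, since most of these genes varied together whatever the dose. After each dose group's mean was removed, 24 of the 28 pairs of genes had a positive correlation over the 36 livers, with a median r of 0.67. By permutation within dose groups 16 pairs passed an adjusted p of 0.05 over the 28 pairs for Pearson's r, and 15 for Spearman's rho. All 15 pairs among Clec4f, Cd68, Csf1r, Adgre1, Ptprc and Cd163 were positive in each of the 6 dose groups, with r between 0.66 and 0.94. That set of 6 was picked out after the values were seen.

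Clec4f and Cd68, the lectin of the cell surface and the glycoprotein of the lysosome, were the closest pair, with r = 0.94 and rho = 0.91 (n = 36). Their permutation p was 1.0e-05, the smallest that 100000 permutations can give, and 2.8e-05 after adjustment. Within single groups r lay between 0.90 and 0.98 (6 rats each), and without the 2 animals farthest from the Clec4f median, both vehicle rats, it was 0.92. Csf1r followed Cd68 at r = 0.91 (rho = 0.88) and Clec4f at 0.89 (rho = 0.87). Adgre1 correlated with Cd68 at 0.89, with Csf1r at 0.87 and with Clec4f at 0.86. Ptprc correlated with Csf1r at 0.88, with Clec4f at 0.87, with Adgre1 at 0.85 and with Cd68 at 0.83. These 10 pairs all reached the smallest p that the permutations allow. Cd163 was looser, at r = 0.66 to 0.72 with the other 5, and within single groups its lowest r was 0.30, with Csf1r at 9.71 mg/kg.

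Cd14 and Lyz2 stood outside that set. Cd14 correlated with Clec4f at r = 0.43 (rho = 0.38), with an adjusted permutation p of 0.0420 for r and 0.0746 for rho. Without the 2 farthest rats r was 0.32, and it was positive in 4 of 6 groups, between -0.47 at 0.97 mg/kg and 0.89 at 97.1 mg/kg. With Adgre1, Ptprc, Cd68, Csf1r and Cd163, Cd14 had r of 0.38, 0.34, 0.33, 0.29 and 0.11, and none of these passed. Lyz2 had r between -0.04 and 0.04 with the 7 other members, and the smallest of its unadjusted permutation p for r was 0.80. The lowest Lyz2 animal, at 0.97 mg/kg (9.32), was among the highest 3 of 36 for 4 other members. Without that rat and the 970 mg/kg rat of high Lyz2, the r of Lyz2 with Cd68 was 0.06 and with Adgre1 0.16.

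**Figure D3:**
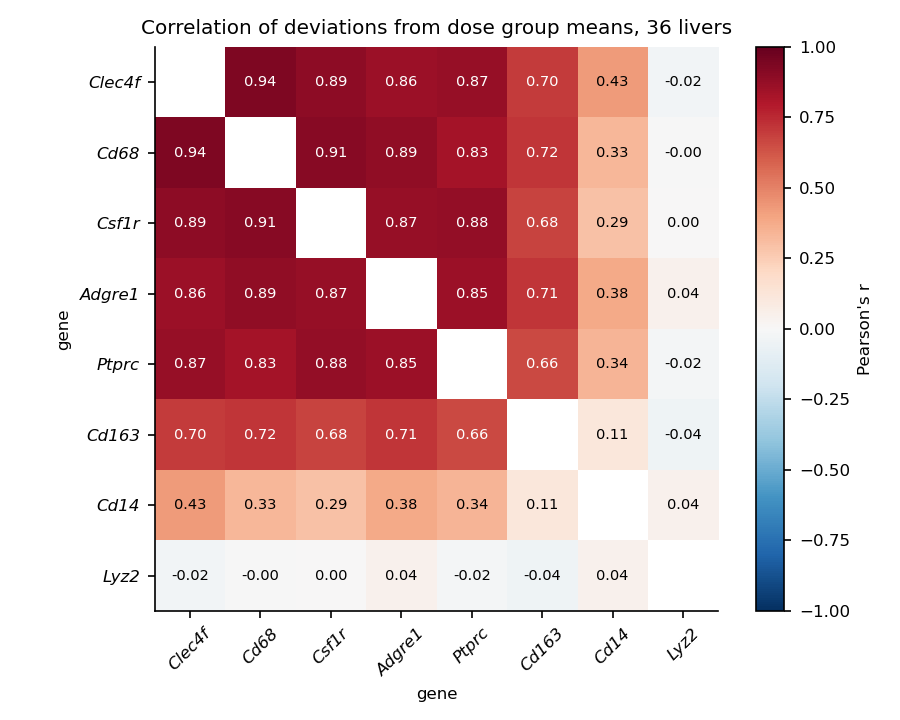
Pearson's r (colour and printed value) between each pair of the 8 macrophage markers (both axes) over 36 livers, after subtracting dose group means. The 15 pairs of the first 6 genes lie between 0.66 and 0.94, those of Cd14 between 0.04 and 0.43, and those of Lyz2 between -0.04 and 0.04.

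**Figure D4:**
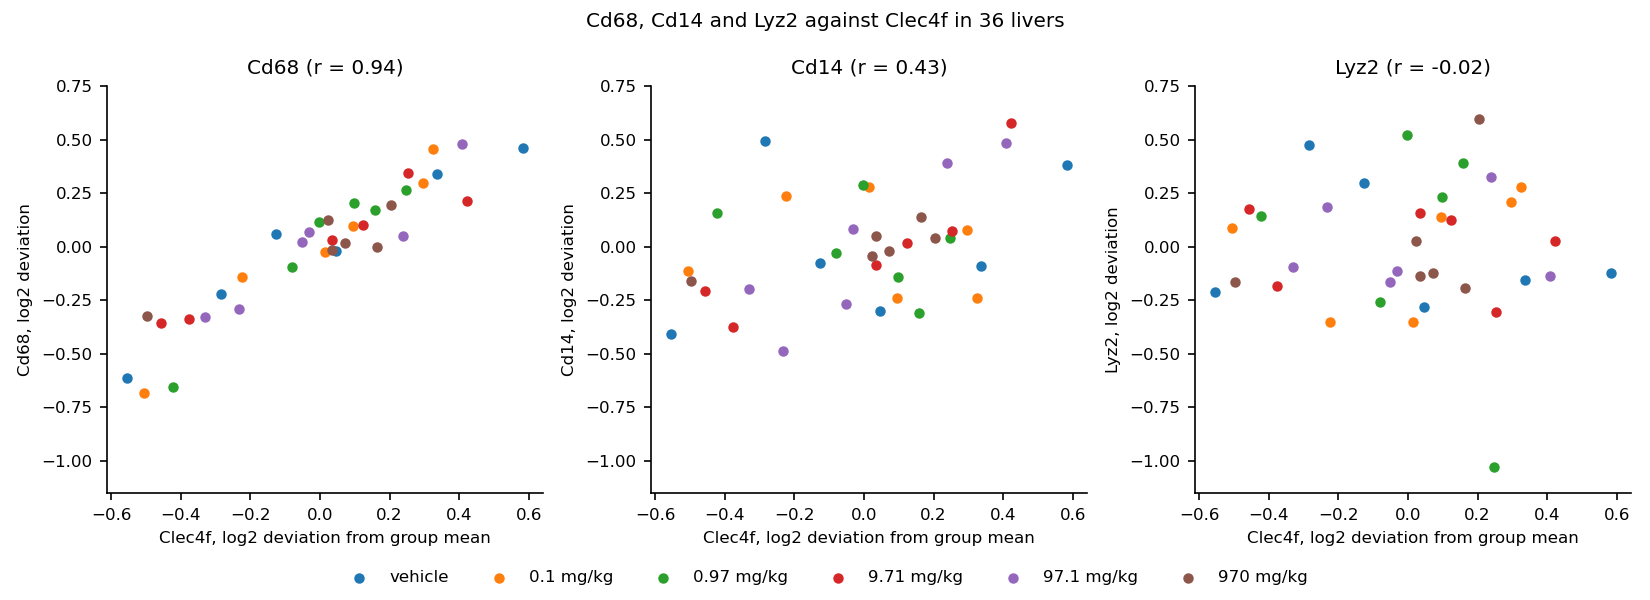
Deviation from the dose group mean (log2) of Cd68, Cd14 and Lyz2 (vertical axes) against that of Clec4f (horizontal axes), 1 point per rat, coloured by dose group. Cd68 follows Clec4f in all groups (r = 0.94), Cd14 scatters around it (r = 0.43) and Lyz2 does not follow it (r = -0.02).

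Single rats were high or low for several members at once. Vehicle 4 was the lowest of 36 for 5 of the 8 genes and among the lowest 3 for 7, with a mean deviation from the average rat of -0.55 on the log2 scale. Rat 6 at 0.1 mg/kg was among the lowest 3 for 6 genes, with a mean deviation of -0.37. At the other end, rat 4 at 0.1 mg/kg and rat 3 at 9.71 mg/kg were each the highest of 36 for 3 genes, with means of 0.33 and 0.30. Low and high rats thus occurred in the same dose group, and the span within a group of the 8-gene mean was 0.47 to 0.78. The group averages of that mean were -0.13 in vehicle, 0.03 at 0.1, 0.07 at 0.97, 0.04 at 9.71, -0.04 at 97.1 and 0.03 at 970 mg/kg. With vehicle 4, rats 4 and 6 at 0.1 and rat 3 at 9.71 mg/kg left out together, a choice made after seeing the data, the mean r of the 28 pairs was 0.439, against 0.505 with all rats.

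**Figure D5:**
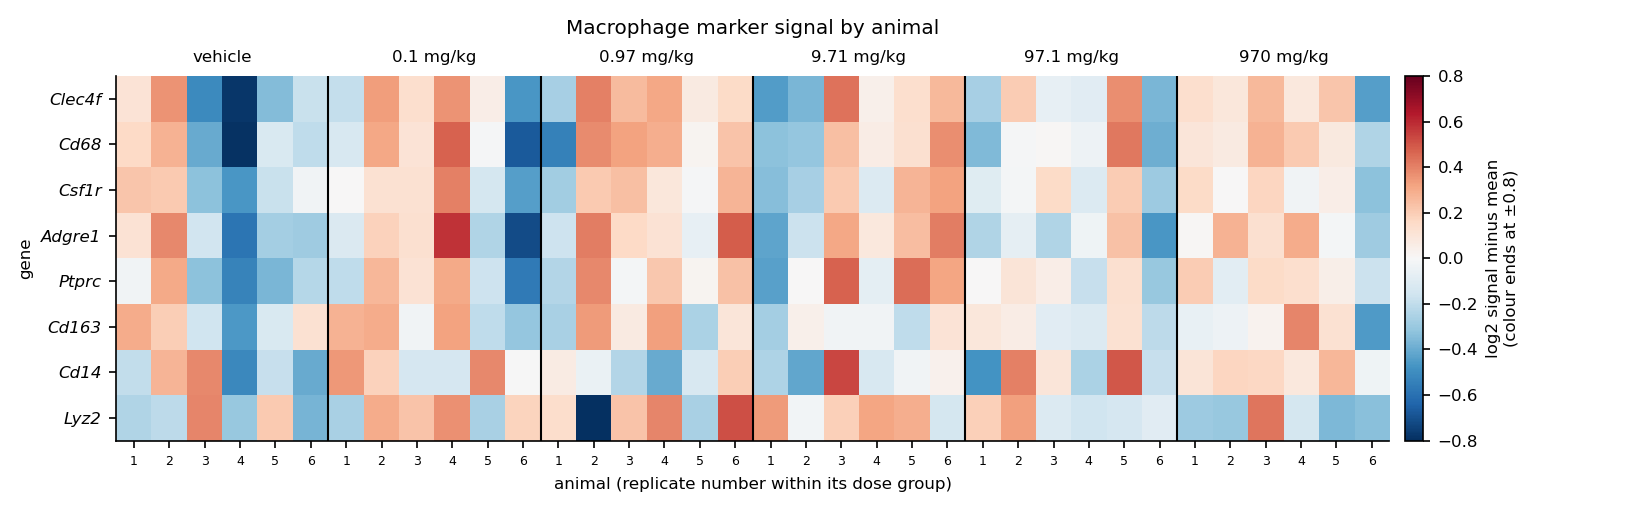
Log2 signal minus the mean of 36 arrays (colour) for the 8 macrophage markers (rows) in each rat (columns, by dose group and replicate number). Some columns have 1 colour over the first 6 rows, as in vehicle 4 (blue) and in rat 4 at 0.1 mg/kg (red), while the Cd14 and Lyz2 rows often differ.

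Across the whole array, the genes most like each member were found by r of the same deviations over the same 36 arrays, which were normalised together. Nearest to Clec4f were Ms4a6bl1 (0.96), Ctss (0.96), which encodes the lysosomal protease cathepsin S, and C1qc (0.95), a chain of complement C1q that macrophages secrete. Cd68 had C1qa and C1qc (0.98 each), and then Anxa3 (0.95). Csf1r had Cybb (0.94), the catalytic subunit of the phagocyte NADPH oxidase, Fcer1g (0.94), an adaptor of Fc receptors, and Ptgs1 (0.94), a cyclooxygenase. Adgre1 had Anxa3 (0.93), Cybb (0.91) and Cd5l (0.90), a protein secreted by macrophages. Ptprc had Fcer1g (0.90), Anxa3 (0.89) and Tyrobp (0.88), another adaptor of myeloid receptors. Cd163 had Ifitm1 (0.79), C1qb (0.78) and Akr1b1 (0.78).

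Each of those 6 members had 5 of the 7 other members in the top 1% of the 31041 other probe sets. Cd14 had 1 and Lyz2 had 0, its best member ranking 12796th. The genes nearest to Cd14 were Slc15a4 (0.63), Leprot (0.62) and Rab13 (0.61). Those nearest to Lyz2 were Mrpl38 (0.65), Rab3ip (0.60) and Tkt (0.59), none of them on the macrophage lists. Nearest to the mean of the 8 members were Cybb (0.95), Fcer1g (0.95), Ms4a6bl1 (0.95), C1qc (0.94), Ctss (0.93), C1qa (0.93), Cd5l (0.93), Anxa3 (0.93), Cd53 (0.92) and Ptgs1 (0.92). Of the 31033 probe sets outside the members 505 had r over 0.5 with that mean, and 77 were below -0.5.

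The other genes of Kupffer cells divided as well. Of 17 measured, 9 correlated with the member mean at over 0.5, among them the C1q chains C1qa (0.93), C1qb (0.88) and C1qc (0.94), Axl (0.88) and Folr2 (0.71), while Stab1 had -0.28 and Nr1h3 0.12. None passed limma's test for all doses against vehicle (0 of 17, 0 with unadjusted p under 0.05), and 11 of 17 lay above 0 with a median of 0.04. Of all probe sets 5.3% were under that p and 49.4% lay above 0, shares that also stand beside the lists below. All lists share the same vehicle rats. Cd5l differed by 0.34 and C1qa by 0.19 for all doses. Phagocyte signalling and lysosome genes had the highest median r of the 17 other lists, 0.84, and 12 of 17 had r over 0.5. Cybb, Fcer1g and Ctss were at the top, with Tyrobp at 0.90 and Lamp1 at -0.02. For all doses against vehicle 0 of these 17 passed in limma, 1 had an unadjusted p under 0.05 (Ctss, 0.29), and 16 of 17 lay above 0 with a median of 0.08.

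Growth factor and lineage genes were mixed. Tfec (0.84), Irf8 (0.80) and Csf2ra (0.72) followed the member mean, and the ligands of Csf1r did not, with Csf1 at -0.17 and Il34 at 0.05. In limma 0 of the 10 measured passed for all doses and 1 had an unadjusted p under 0.05, Cebpb (0.32), a factor that hepatocytes also use, with r = -0.03. Of the 12 genes of the lipopolysaccharide receptor pathway, to which Cd14 belongs, 2 had r over 0.5, Tlr2 (0.63) and Ly96 (0.51). Tlr4, the signalling receptor, had 0.46, Lbp, which carries lipopolysaccharide to Cd14, had -0.00 and Irak4 had -0.52. The mean signal of Irak4 was low, 3.31, at the 18.1th percentile of all probe sets. In limma 0 of these 12 passed for all doses, and 3 had an unadjusted p under 0.05: Myd88 (0.18), Irak1 (-0.08) and Nfkbia (-0.24). Among 16 cytokines and chemokines of activated macrophages, Il1b (0.74), Ccl3 (0.61) and Cxcl10 (0.53) had r over 0.5. For all doses 0 of 16 passed in limma and 2 had an unadjusted p under 0.05, Ccl3 (0.23) and Il6 (0.12), while Tnf differed by -0.13. Of the 16 genes 8 had a mean signal above that of the median probe set. Il6 was near the floor, with a mean signal of 2.78 at the 6.8th percentile, so its difference cannot be read as expression.

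Genes of the interferon response varied with the macrophage markers between animals. Of 13 measured, 12 had r over 0.5 with the member mean (median 0.79), led by Irf7 (0.87), the factor that amplifies the response, with Oas1a and Usp18 at 0.83 each. The exception was Ifit1, at -0.25. For all doses against vehicle 0 of 13 passed in limma and 6 had an unadjusted p under 0.05 (5.3% of all probe sets). The median was 0.37, with 11 of 13 above 0 (49.4% of all probe sets). These counts do not come from separate observations, since the genes varied together and every dose shares the same vehicle rats. The mean deviation of the 13 genes from the average rat ran from -0.71 to 0.50 in vehicle and from -0.83 to 0.74 in dosed rats. Usp18 differed by 0.75, Oas1a by 0.62 and Irf7 by 0.57, each with an adjusted p of 0.933 in limma. The summed linear signal of the 13 genes had a median of 1470 (1121 to 1544) at 970 mg/kg and 977 (909 to 1816) in vehicle, where the summed signal of the 8 members was 4375 (3548 to 5231) and 4116 (2995 to 4850). The part of the interferon genes in the animal differences was not tested.

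Markers of other cells give the surroundings of these values. T and NK cell markers divided, with 4 of 12 at r over 0.5. These were Gzma (0.84) and Prf1 (0.78), both proteins of cytotoxic granules, Klrd1 (0.64) and Il2rb (0.51). Nkg7 had r = 0.44 and Gzmb 0.39. The T cell markers Cd3e (0.23), Cd3d (-0.06), Cd3g (0.05), Cd4 (0.07), Cd8a (0.11) and Cd2 (-0.27) had the lowest r of the list. Only 4 of the 12 genes had a mean signal above that of the median probe set, so a low r here can reflect low signal. For all doses 0 of 12 passed in limma, 3 had an unadjusted p under 0.05 and 11 of 12 lay above 0, with Klrd1 at 0.22 and Nkg7 at 0.21. Their summed signal was 378 (342 to 401) at 970 mg/kg and 336 (306 to 389) in vehicle, and their part in the result was not tested. Of 6 monocyte genes outside the members 2 had r over 0.5, Plac8 (0.86) and S100a4 (0.55), and the list held 0 calls in limma for all doses and 1 unadjusted p under 0.05, Cx3cr1 (0.20, r = 0.02). B cell and dendritic cell markers had 1 of 4 each over 0.5, Blk (0.59) and Clec9a (0.57). Of these genes 1 of 4 for B cells and 0 of 4 for dendritic cells had a mean signal above that of the median probe set.

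Few markers of the remaining cell types varied with the members. At r over 0.5 were 0 of 6 neutrophil, 0 of 10 stellate cell and fibroblast, 0 of 7 hepatocyte, 0 of 5 bile duct, 0 of 4 erythroid and 0 of 9 mitosis genes, and 1 of 8 endothelial genes, Tek (0.50). Only 1 of the 6 neutrophil and 2 of the 4 erythroid genes had a mean signal above that of the median probe set. For all doses against vehicle 0 genes of these 7 lists passed in limma, and 1 had an unadjusted p under 0.05, the stellate cell gene Des (-0.16). The mitosis genes were set apart at 970 mg/kg, where 9 of 9 lay above 0 (48.1% of all probe sets) with a median of 0.51. Of these genes 8 of 9 had an unadjusted p under 0.05 (4.87% of all probe sets), although 0 of 9 passed in limma. Their part in the members' values at that dose was not tested. With group means removed, the beta-actin difference correlated at r = -0.24 with the plain mean of the members' log2 deviations, and the array median at -0.22 (n = 36). The r of single genes with the member mean was taken on standardised deviations instead.

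Genes beside a member in the genome mostly did not vary with it. Among the 10 nearest measured genes of each member, 5 on each side in the RefSeq order, the median r lay between -0.05 and 0.10. Cd163 had Clec4a3 (0.67) and Clec4a1 (0.57), lectin receptors of myeloid cells, with 18 and 19 annotated genes between. Cd14 had Ndufa2 (0.55) and Tmco6 (0.51), its close neighbours, with 1 and 0 annotated genes between. Lyz2 had Yeats4 at 0.56 by its probe set of higher mean signal (positive in 6 of 6 dose groups) and -0.16 by its other, with 2 annotated genes between. Rab3ip, one of the genes nearest to Lyz2 in pattern, lay 13 annotated genes away, and its 2 probe sets disagreed, at 0.60 for the one of lower mean signal and -0.29 for the other. These neighbours were singled out after their values were seen.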

How the data were processed

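Liver RNA of 36 rats in 6 groups of 6 was measured on Affymetrix 3′ IVT arrays, 1 per sample. The authors deposited log2 signals per probe set, made with RMA and the affy package per the submitters' processing notes; their versions are not given in the sources used here. Of 31099 probe sets, 57 controls were left out and all others kept, however low. The platform annotation gave gene names, and 20758 of the 20826 probe sets naming 1 gene had an Entrez ID in the rat RefSeq table. The members and the 17 other gene lists (195 genes in 18 lists, 166 measured) were chosen with earlier results of these data known, and the tests likewise. A member or list gene with several probe sets was read from the one of highest mean, while the search for the genes most like a member took every probe set, so that Anxa3 and Rab3ip there can be other probe sets.

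Doses were compared with vehicle in 1 limma 3.58.1 fit (R 4.3.3, lmFit and eBayes, two-sided) over all arrays, with Benjamini-Hochberg adjustment at 0.05 within a comparison, and tested on simulated data. Covariation used deviations from group means (Python 3.11.15, numpy 2.4.6) with 100000 permutations within groups, two-sided. All members were named, with up to 4 genes per other list by the smallest p for all doses, the 3 genes most like each member and the 10 most like their mean; other list genes were named for their r after it was seen. Same-numbered samples of different groups had residuals correlating at a mean r of 0.0048 over 90 pairs, so the number was used as a block in an alternative only. The further alternatives were cyclic loess and median-centred arrays, weighted arrays, a robust prior with an intensity trend, the beta-actin covariate, a filter on low values, fewer samples in the fit, other thresholds and each array left out. Motifs were searched in RefSeq promoters of 300 bases.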

Additional observations from a re-analysis of the deposited data

Results flagged for a closer look

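In 54 groups of 6 (9 probe sets in 6 dose groups) 2 held an animal far from the others by Dixon's test at 95%, and chance alone flags about 1 group in 20. Both were at 970 mg/kg. Clec4f in rat 6 was 9.83, with the next rat at 10.35, a gap of 0.745 of the group's range. The array of rat 6 had the highest beta-actin difference of all arrays, 1.33, where the vehicle mean was 1.12. The part of RNA quality in this Clec4f value was not tested. Lyz2 in rat 3 was 10.78, with the next rat at 10.21, a gap of 0.719 of the range. That rat also had the highest mean deviation of the 6 neutrophil markers among the 36 rats, 0.81, with the next rat at 0.31. Only 1 of those 6 markers had a mean signal above that of the median probe set. The part of neutrophils in this Lyz2 value was not tested. Without rat 6 at 970 mg/kg the median of the 8 members at that dose was 0.265, against 0.214 with all rats.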

How the results depend on the processing

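In every comparison 0 of the member probe sets tested passed limma's test under any alternative run, as in the analysis reported. These alternatives included adjusted p thresholds of 0.01 and 0.1 and each of the 36 arrays left out. The filter on low values left out the Ptprc probe set of lower mean signal (45.7th percentile), so that one was not tested there. Counts at an unadjusted p under 0.05 were less steady: with each array left out they lay between 0 and 1 of 8 genes at 0.1, 0 and 4 at 0.97, 0 and 2 at 9.71 and 0 and 2 at 970 mg/kg, and were 0 at 97.1 mg/kg. The same-number replicate block also gave 0 of 9 in each comparison and changed no call. The mean r of the 28 pairs was 0.505, 0.510 with the replicate block, 0.508 by Spearman, 0.498 without removing group means, 0.513 on centred arrays, 0.504 after cyclic loess and 0.524 with the beta-actin covariate. With each array left out in turn it lay between 0.468 and 0.532. Leaving out 1 array turned the sign in 13 of the 40 pairings of gene and dose, none of which passed a test: at 970 mg/kg Lyz2 lay between -0.20 and 0.02 and Cd163 between -0.07 and 0.11, and at 0.97 mg/kg Cd14 lay between -0.067 and 0.114, Lyz2 between -0.023 and 0.288 and Cd163 between -0.015 and 0.138. The other 8 were Adgre1 and Cd163 at 0.1, Cd14 and Cd163 at 9.71, and Cd68, Adgre1, Csf1r and Cd163 at 97.1 mg/kg. Cd163 for all doses lay between -0.06 and 0.09. Without vehicle 2, Clec4f and Ptprc for all doses differed from vehicle by 0.38 and 0.33, and without vehicle 4 by 0.16 and 0.17. With 6 rats a group precision was limited: the 95% interval of Clec4f at 970 mg/kg ran from -0.06 to 0.63.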
